A study of Homo sapiens with 2 samples.

Results

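The ERK feedback genes described here are 10 genes taken from a fixed list of gene symbols, 10 of the 23352 genes in the deposited gene tables: the Sprouty genes SPRY1, SPRY2 and SPRY4, the Sprouty-related genes SPRED1 and SPRED2, the dual-specificity phosphatase genes DUSP4, DUSP5 and DUSP6, and the ETS transcription factor genes ETV4 and ETV5. The list was drawn up with earlier results of these data known, so the difference between the libraries is given as a description and is not independent evidence. The study compared A673 cells, an established human Ewing sarcoma line, that carried a lentiviral short hairpin RNA against the transcription factor RUNX3 (number 813) with A673 cells that carried a non-target hairpin (NT). Both populations went through the same steps: virus collected from HEK 293T packaging cells after 72 hours, 6 µg/mL polybrene, and 6 days of selection in 0.4 µg/mL puromycin. Each group has 1 library of poly(A) RNA, which its title names as a pool, and 1 hairpin against RUNX3, so no value has a replicate check and no p-value was computed.

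The 2 libraries are named by their titles, the 813 library and the NT library, because each title contradicts the shRNA entry in the characteristics of the same sample; by the characteristics every direction given here would be the opposite. RUNX3 had 387 read pairs (15.8 CPM) in the 813 library and 1391 pairs (59.9 CPM) in the NT library, a log2 fold of -1.92 (-2.09 to -1.76), which goes with the titles. The libraries held 23342660 and 24326135 pairs. CPM are pairs per 1000000 after TMM scaling of the library sizes, log2 folds are the 813 library over the NT library, and each bracketed range is an exact 95% interval that covers counting error only. A gene counted as measured if either library reached 1 CPM. It was called if it differed by 2-fold or more and no part of its interval came within 1.5-fold. Summed over the measured markers, the Ewing sarcoma list (5 of 5 measured) stood at 4549 and 4630 CPM in the 813 and NT libraries, fibroblast (3 of 4) at 21.3 and 32.9, endothelial (1 of 3) at 1.14 and 0.775, leukocyte (2 of 4) at 91.2 and 129.9 and HEK293 (3 of 3) at 8.63 and 12.5. Of the Ewing sarcoma markers, CD99 stood at 4026 and 3808 CPM and made up most of that sum, and PRKCB stood at 282 and 254 CPM. NR0B1 (-1.11) and NKX2-2 (-1.43) were called lower in the 813 library. STEAP1, with 382 and 646 pairs (-0.83, -1.02 to -0.65), was lower there without passing the rule. The leukocyte markers PTPRC (0 and 1 pairs) and CD3E (0 and 0 pairs) were at or near 0 and CD14 had 30 and 14 pairs, while CD79A, at 89.98 and 129.3 CPM, made up nearly all of the leukocyte sum. Of the HEK293 markers, taken for the packaging cells, GATA3 had 33 and 93 pairs and was called lower in the 813 library, NEFL had 73 and 122 pairs and NEFM 105 and 75. The part of these marker differences in the results was not tested.

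ERK is the last kinase of the RAS, RAF, MEK and ERK cascade that carries growth factor signals to the nucleus. Active ERK induces its own inhibitors. Sprouty proteins block the passage from receptor tyrosine kinases to RAS, SPRED proteins bring the RAS inactivator neurofibromin to the membrane, and the DUSP phosphatases remove the phosphates that activate ERK. ETV4 and ETV5 are PEA3-type ETS factors whose genes are held down by the repressor Capicua, which ERK signalling releases from DNA, and the RNA of these genes is widely read as a gauge of pathway output. A673 cells carry the EWS/FLI1 fusion and are also known for an activating mutation of BRAF, a kinase of this cascade. RNA levels give no direct measure of ERK phosphorylation.

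Promoter windows of 300 bases (250 before and 50 from the annotated start) were found in RefSeq (GRCh38.p14) for 6 of the 10 genes, as 10 windows, since some genes have more than 1 start. DUSP4, DUSP5, ETV4 and ETV5 had no window and were not searched. The windows are shown because 7 of the 10 genes were higher together. Each window was searched on both strands for the letters TGAATGAA and TGAATGGA (Capicua), TGTGGT (RUNX), CCGGAAGT (ETS), TGACTCA (AP-1) and TGACGTCA (CRE). The other Capicua forms TCAATGAA and TCAATGGA, and GGAAGGAA, which has the repeat unit bound by EWS/FLI1, were added after the windows had been read. In the DUSP6 stretch (chr12:89352492-89352651, minus strand) the capitals mark TCCATTGA, the opposite strand of TCAATGGA, which lies 24 to 17 bases before the start and again at transcribed bases 2 to 9. The SPRED2 stretch (chr2:65366778-65367028, minus strand), from the more downstream of its starts, has TGTGGT and TGACTCA in capitals. The SPRY4 stretch (chr5:142324248-142324347, minus strand) is the 100 bases before its start, with no match to mark. 
DUSP6: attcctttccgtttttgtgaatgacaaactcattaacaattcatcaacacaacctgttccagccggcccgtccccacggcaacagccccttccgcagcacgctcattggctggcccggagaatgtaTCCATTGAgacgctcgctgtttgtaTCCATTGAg
SPRED2: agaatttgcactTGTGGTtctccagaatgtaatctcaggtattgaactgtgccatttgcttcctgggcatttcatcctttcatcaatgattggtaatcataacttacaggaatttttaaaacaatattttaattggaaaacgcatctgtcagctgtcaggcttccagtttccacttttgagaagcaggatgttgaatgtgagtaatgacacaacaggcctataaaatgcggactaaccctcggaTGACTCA
SPRY4: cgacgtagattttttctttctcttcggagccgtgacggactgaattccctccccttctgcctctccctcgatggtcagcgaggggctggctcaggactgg
The letters TCAATGGA were present in 0.510% of the 35116 windows of the table, and DUSP6 was the 1 window that held them at 2 places. Because TCAATGGA was added after the windows had been read, nothing is read from its rarity. TGTGGT was present in 13.1% of all windows and in 1 of the 10 windows here, that of the more downstream SPRED2 start. TGACTCA was in 4.95% of all windows and in the same SPRED2 window. The window of the more upstream SPRED2 start held neither. None of the 10 windows, which leave out DUSP4, DUSP5, ETV4 and ETV5, held TGAATGAA (1.65% of all windows), TGAATGGA (1.03%), CCGGAAGT (4.14%), TGACGTCA (1.85%), TCAATGAA (0.718%) or GGAAGGAA (3.67%). No match says only that these letters are not in these windows.

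All 10 genes were measured and all 10 had log2 folds above 0. Of these, 7 were called higher in the 813 library and 0 lower: SPRY1, SPRY2, SPRY4, DUSP5, DUSP6, ETV4 and ETV5. Over all 12254 measured genes 8.13% were called higher and 3.48% lower; the list was chosen with this contrast in view, so nothing is read from the comparison. Of all calls 69.99% were higher, and 81.5% with plain library totals, under which the median of all genes was 0.15. The median log2 fold was 1.46 for the 10 genes and 0.01 for all measured genes. Summed over the list, the 10 genes had 11089 and 4819 pairs, or 453 and 208 CPM. SPRED1, SPRED2 and DUSP4 did not pass the rule. SPRED1 (log2 fold 0.99) lay just under 2-fold and ETV5 (1.06) just over it.

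**Figure D1:**
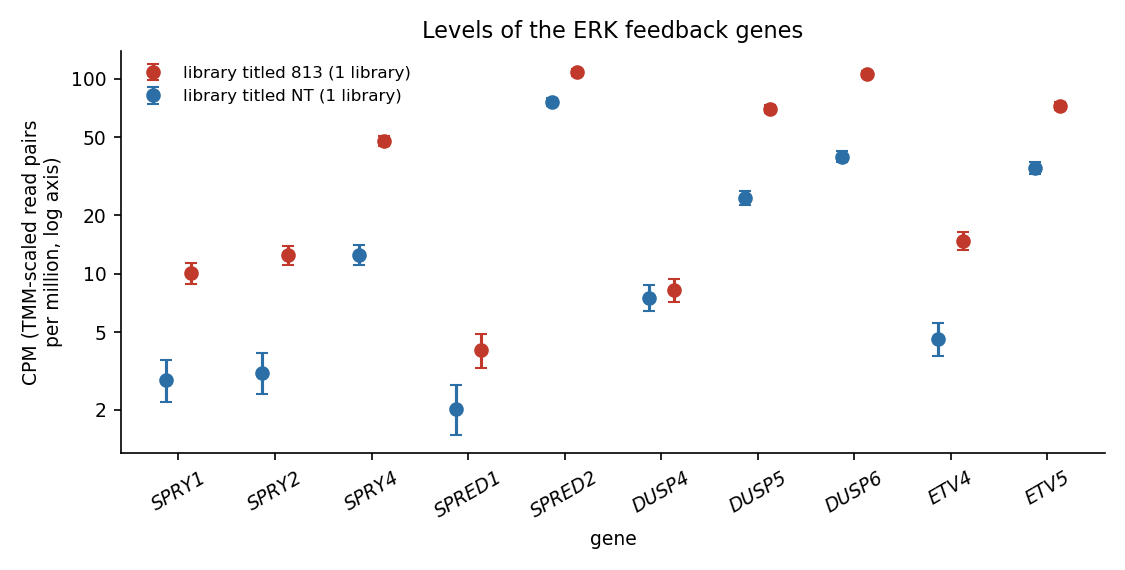
Level of each ERK feedback gene in the 813 library (red) and the NT library (blue), in CPM on a log axis, with 1 library per group; bars are exact 95% Poisson intervals of the pair count. The red point lies above the blue point for every gene, and the bars overlap only for DUSP4.

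All 3 Sprouty genes were higher in the 813 library. SPRY4 (chr5:141689992-141704620 in hg19, minus strand), which inhibits RAS activation downstream of receptor kinases, had 1174 pairs (48.0 CPM) in the 813 library and 291 pairs (12.5 CPM) in the NT library, a log2 fold of 1.93 (1.75 to 2.13). SPRY2 (chr13:80910112-80915086, minus strand), which binds the ubiquitin ligase CBL and the adaptor GRB2, had 304 pairs (12.4 CPM) and 72 pairs (3.10 CPM), a log2 fold of 1.99 (1.63 to 2.39). SPRY1 (chr4:124317956-124324909, plus strand), known as a feedback inhibitor of FGF and RET receptor signalling, had 246 pairs (10.1 CPM) and 66 pairs (2.84 CPM), a log2 fold of 1.81 (1.43 to 2.24). The 3 intervals overlap one another, and that of ETV4 overlaps all of them, so these genes cannot be ranked by fold at this depth. Their sum was 70.5 and 18.5 CPM, a log2 fold of 1.93 (1.78 to 2.09). The make-up of that sum was close in the 2 libraries: SPRY4 held 68.1% (Clopper-Pearson 65.8 to 70.3) of the Sprouty pairs in the 813 library and 67.8% (63.2 to 72.2) in the NT library. SPRY2 held 17.6% and 16.8%, and SPRY1 14.3% and 15.4%. Of the 12254 measured genes, 166 had a larger fold than SPRY2, 184 than SPRY4 and 230 than SPRY1.

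The SPRED genes differed less. SPRED2 (chr2:65537985-65659656, minus strand) had the highest CPM of the list in both libraries, with its count close to that of DUSP6 in the 813 library. It had 2641 pairs (108 CPM) and 1760 pairs (75.8 CPM), a log2 fold of 0.51 (0.42 to 0.60). Its interval lies above 0 and wholly under 2-fold. SPRED1 (chr15:38545052-38649450, plus strand), the gene mutated in Legius syndrome, was the least abundant, with 99 pairs (4.05 CPM) and 47 pairs (2.02 CPM), a log2 fold of 0.99 (0.48 to 1.53). With plain library totals in place of TMM its log2 fold was 1.13 and it passed the rule. SPRED2 supplied 96.4% of the SPRED pairs in the 813 library and 97.4% in the NT library.

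Among the phosphatases DUSP5 and DUSP6 were higher and DUSP4 was not. DUSP6 (chr12:89741837-89746296, minus strand), a cytoplasmic phosphatase specific for ERK, had 2586 pairs (106 CPM) in the 813 library and 926 pairs (39.9 CPM) in the NT library, a log2 fold of 1.41 (1.297 to 1.52). DUSP5 (chr10:112257625-112271302, plus strand), its nuclear counterpart, had 1712 pairs (69.99 CPM) and 569 pairs (24.5 CPM), a log2 fold of 1.51 (1.38 to 1.65). DUSP4 (chr8:29190579-29208267, minus strand), a nuclear phosphatase that acts on ERK and on other MAP kinases, had 201 pairs (8.22 CPM) and 175 pairs (7.54 CPM), a log2 fold of 0.12 (-0.18 to 0.43). DUSP4 is the 1 gene of the list whose interval includes 0, and an interval that ends at 0.43 lies under those of DUSP5 and DUSP6. DUSP4 made up 4.47% (3.88 to 5.11) of the pairs of the 3 phosphatases in the 813 library and 10.5% (9.05 to 12.0) in the NT library. The value of DUSP6 carries an uncertainty of another kind: the strand setting of the counting is not given in the sources used here, and in GENCODE release 29 exons of the antisense gene AC024909.2 cover 40.5% of the DUSP6 exon bases, so reads of the pair cannot be told apart.

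Both ETS factor genes were higher. ETV4 (chr17:41605211-41623762, minus strand) had 359 pairs (14.7 CPM) in the 813 library and 107 pairs (4.61 CPM) in the NT library, a log2 fold of 1.67 (1.36 to 1.996). ETV5 (chr3:185764106-185826901, minus strand) had 1767 pairs (72.2 CPM) and 806 pairs (34.7 CPM), a log2 fold of 1.06 (0.94 to 1.18). The interval of ETV4 lies above that of ETV5, and the share of ETV4 in the pairs of both genes was 16.9% (15.3 to 18.5) against 11.7% (9.70 to 13.99). ETV5 was the more abundant of the 2 in each library. After correction for GC content and gene length the log2 fold of ETV5 was 0.89 and its call ended.

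**Figure D2:**
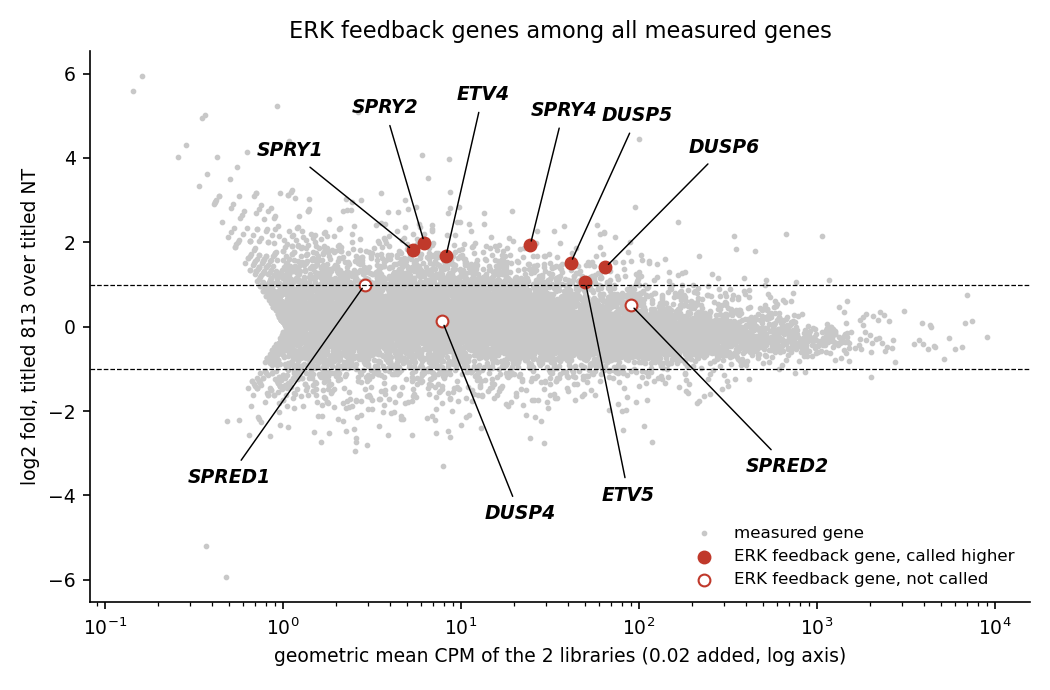
Log2 fold of the 813 library over the NT library against the geometric mean CPM of the 2 libraries (log axis) for the 12254 measured genes (grey) and the ERK feedback genes (red; filled where called higher, open where not), with dashed lines at 2-fold. The 7 filled points lie between 1.06 and 1.99, and DUSP4 lies at 0.12.

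To compare levels between genes, CPM were divided by the exon length listed for each gene (CPM per kb). In the 813 library the order ran from DUSP6 (37.5 CPM per kb) and DUSP5 (27.7) through SPRED2 (23.2), ETV5 (17.6), SPRY4 (9.61), ETV4 (5.94), SPRY2 (5.89), SPRY1 (3.84) and DUSP4 (1.12) to SPRED1 (0.558). ETV4 and SPRY2 are the neighbours in this order whose counting intervals overlap. In the NT library SPRED2 came first (16.3 CPM per kb), followed by DUSP6 (14.1), DUSP5 (9.70), ETV5 (8.46), SPRY4 (2.51), ETV4 (1.87), SPRY2 (1.47), SPRY1 (1.09), DUSP4 (1.03) and SPRED1 (0.279). There the intervals of DUSP5 and ETV5 overlap, as do those of each neighbouring pair from SPRY4 down to DUSP4. The 2 orders differ only in the place of SPRED2, which stood above both DUSP5 and DUSP6 in the NT library and below both in the 813 library. The order of genes depends on the listed length, which the counting intervals do not cover. In the NT library the wholly coding exon records of DUSP4 stood at 4.70 and 4.87 CPM per kb, against 1.03 for the gene. In the 813 library those of SPRED1 ran from 1.40 to 3.48, against 0.436 in its long last record.

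The exon tables give reads along each gene from the same libraries, so they are no independent replicate. The 10 genes have 63 exon records, all with reads in both libraries, and 59 of them had log2 folds above 0; 2 nested SPRY1 records share their reads. Of 46 records with at least 50 reads over both libraries, 43 had log2 folds above 0, and the 3 others belong to DUSP4. An exon was said to depart from its gene where it differed 2-fold or more from the gene's other exons with intervals that did not overlap. None of the 46 did so, where 0.423% of the 92852 exons examined over all genes did. At so small a share nothing is read from their absence here. The 2 nested SPRY1 records were each compared with a sum that held the other, so they could hardly depart.

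In SPRY2, DUSP5, DUSP6 and ETV5 every exon record had an interval above 0. So had 10 of 14 ETV4 records, 2 of 3 SPRY4 records and 2 of 4 SPRY1 records, the nested ones. All 13 ETV5 records had folds above 0 and intervals above 0, from 0.75 at the first record (chr3:185826729-185826901, untranslated by its length in GENCODE, 84 and 47 reads) to 1.298 at chr3:185798835-185798964 (coding, 157 and 60 reads). In ETV4 all 14 records had folds above 0, and among the 8 with 50 reads or more they ran from 0.99 at chr17:41607475-41607549 (43 and 20 reads) to 2.25 at chr17:41606503-41606604 (64 and 12 reads), both coding. The first 3 ETV4 records were thinly covered in both libraries, with 16, 3 and 17 reads against 5, 2 and 9. The 3 DUSP6 records ran from 1.23 at the first (1301 and 524 reads) to 1.48 at the last (2940 and 1001 reads), and the 4 DUSP5 records from 1.34 to 1.57. In SPRY4 and SPRY2 the 3′ exon held most reads, with 2184 and 549 reads (log2 fold 1.91) for SPRY4 and 515 and 118 reads (2.04) for SPRY2. The first SPRY2 exon (untranslated, 93 and 29 reads) had a log2 fold of 1.57 and the first SPRY4 exon (78 and 23 reads) 1.64.

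In SPRY1 nearly all reads fell in 1 exon. This last exon, which holds the coding sequence, had 458 and 111 reads, a log2 fold of 1.96 (1.54 to 2.42). The listed first exon (chr4:124317956-124318087, untranslated) had 11 and 7 reads and the second record 1 and 3, too few to compare the libraries. In DUSP4 the last exon (chr8:29190579-29194928) had 255 and 180 reads, a log2 fold of 0.42 (0.03 to 0.83). The coding records before it, at chr8:29195799-29196018 and chr8:29197615-29197760, had 36 and 48 reads (-0.48) and 21 and 33 reads (-0.70), and the first exon had 96 and 100 reads (-0.13). The intervals of these 3 records include 0 and overlap that of the last exon. Without the last exon the other DUSP4 exons summed to a log2 fold of -0.26 (-0.70 to 0.19).

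**Figure D3:**
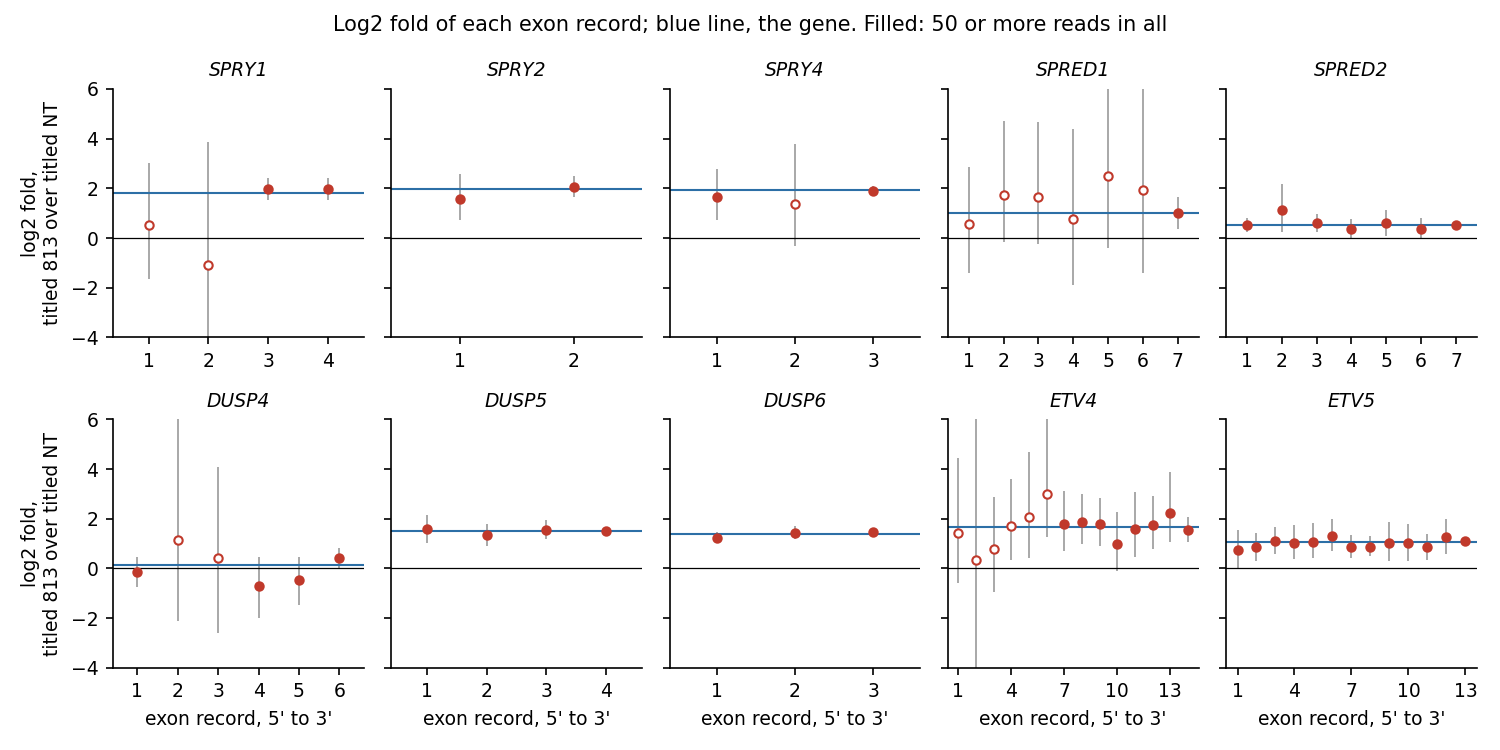
Log2 fold of each exon record of the ERK feedback genes in 5′ to 3′ order, the 813 library over the NT library; grey bars are exact 95% intervals of the reads divided by 2 (some run past the axis), filled points have 50 or more reads over both libraries, and the blue line is the fold of the gene. Filled points lie above 0 except 3 of DUSP4.

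Other genes of the pathway were grouped by role in 10 lists of 73 genes, of which 65 were measured. Among these, 8 (12.3%) were called higher and 3 (4.62%) lower, with a median log2 fold of 0.26. Over all measured genes 8.13% were called higher and 3.48% lower. These lists were also chosen with earlier results of these data known, so nothing is read from the comparison. In the RAS, RAF, MEK and ERK core 0 of 11 genes were called in either direction (median 0.07): BRAF had a log2 fold of 0.07 (-0.32 to 0.46). MAPK3, which encodes ERK1, stood at 96.5 and 191 CPM (-0.99, -1.06 to -0.91) without passing the rule, and was called lower with DESeq2 size factors. Upstream, GAB1, an adaptor that recruits the phosphatase SHP2, was the 1 of 10 adaptor genes called higher (1.25, 0.89 to 1.64). SHOC2 of the same list had 29 and 62 pairs (-1.16, -1.86 to -0.51) and was not called. Of 7 measured receptors, FGFR4 was called lower (-1.07, -1.21 to -0.94) and 0 higher. This pattern turned with plain library totals, under which FGFR4 was not called (-0.94) and PDGFRB, at 384 and 207 CPM (0.89), was called higher (1.02). The receptor gene ERBB2, at 35.4 and 68.2 CPM (-0.94, -1.07 to -0.82), was not called.

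Among 6 measured MAP kinase phosphatases outside the list, 0 were called. DUSP1, an immediate early phosphatase, had 317 and 311 pairs (-0.05, -0.28 to 0.18). DUSP2, a nuclear phosphatase, had 30 and 9 pairs (1.61, 0.55 to 2.92) and was called higher with plain totals (1.74). DUSP9 went the other way with 31 and 63 pairs (-1.09, -1.77 to -0.46) and was not called. Of 9 measured ERK-induced genes, 3 were higher and 0 lower: IER3 (1.55, 1.42 to 1.69), PHLDA1 (1.45, 1.13 to 1.78) and the ephrin receptor gene EPHA4 (1.06, 0.72 to 1.41). In all, 8 of the 9 had log2 folds above 0, with a median of 0.73. Over all 12254 measured genes, 6216 had log2 folds above 0 and 8.13% were called higher. Nothing is read from these counts in so short a list. EGR1 (0.45), FOSL1 (0.32), IER2 (0.79), EPHA2 (0.73) and CCND1 (0.62) did not pass the rule, nor did MYC (-0.28), the 1 gene of the 9 with a fold under 0. ERRFI1, which encodes an inhibitor of EGFR-family receptors, had 1685 and 596 pairs (1.42, 1.29 to 1.56). ETV1, the third PEA3-type factor, had 145 and 85 pairs (0.69, 0.30 to 1.10) and was not called.

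The regulators that act directly on these genes or on RAS differed singly. CIC, which encodes Capicua, had 232 and 264 CPM (-0.19, -0.24 to -0.14), and its partner ATXN1 was higher with 241 and 53 pairs (2.10, 1.68 to 2.57). The other gene of that list, ATXN1L, was more abundant, with 2222 and 1660 pairs (0.35, 0.25 to 0.44), and was not called. Among 7 RAS GTPase-activating proteins, NF1, which encodes the neurofibromin that SPRED proteins bind, was higher with 154 and 65 pairs (1.16, 0.74 to 1.61). RASAL1 was lower with 1 and 52 pairs, a ratio of 0.0271 (0.000453 to 0.106). Of the RSK kinases, which ERK activates, RPS6KA3 was higher (1.08, 0.70 to 1.48) and RPS6KA1 lower (-1.11, -1.22 to -0.99). After correction for GC content and gene length the calls of GAB1 (0.98), PHLDA1 (0.97), RPS6KA3 (0.69), NF1 (0.61), EPHA4 (0.59), RPS6KA1 (-0.92) and FGFR4 (-0.73) ended, and those of DUSP2 (2.07) and IER2 (1.20) began. With plain library totals 12 genes of the lists were called higher: RPS6KA2 (1.12) and ELK4 (1.07) passed the rule beside DUSP2 and PDGFRB, while RPS6KA1 (-0.97) did not. DUSP2, DUSP9, IER2, EPHA2, CCND1, MYC, PDGFRB, ERBB2, SHOC2, ATXN1L, RPS6KA2 and ELK4 were named after their values were seen.

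**Figure D4:**
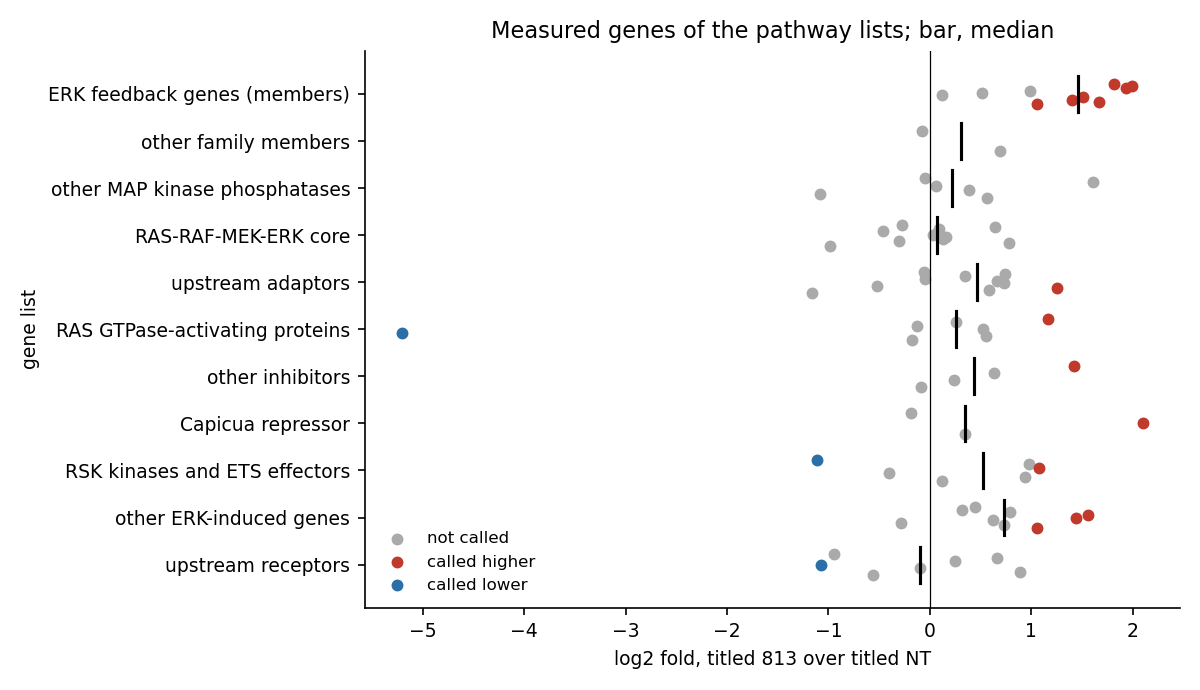
Log2 fold, the 813 library over the NT library, of the measured ERK feedback genes and of the measured genes in 10 related lists (red, called higher; blue, called lower; grey, not called); the black bar is the list's median. The median of the ERK feedback genes is 1.46, and those of the other lists lie between -0.10 and 0.73.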

How the data were processed

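The members and all gene lists were chosen with earlier results of these data known. Per the file headers the authors deposited, for genes and for exon records, raw counts and RPKM values. The submitters' processing notes name CASAVA 1.9, TopHat2 2.0.6, HTSeq and build hg19; the annotation and the strand setting of the counting were not given in the sources used here. All deposited gene counts are even, so they were divided by 2 and read as pairs. After 46 repeated rows were dropped, 23352 genes remained. The deposited RPKM were used as an alternative scaling.

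Libraries were scaled by TMM over all genes (edgeR 4.0.16, R 4.3.3), with factors of 1.05 and 0.954. Log2 folds used a prior of 0.5 pairs. Intervals are exact conditional binomial (Clopper-Pearson), computed with scipy 1.17.1; PCR copies are not independent molecules, so they cover counting error only. Exon reads were divided by 2 for intervals; exons needed 50 reads in genes with 200. The rule was tested on simulated counts: of 12118 genes run, 0 of 11919 unchanged genes were called, and 88% of genes changed 2.5-fold and 98% changed 4-fold were recovered. The simulated counts held Poisson counting noise only, with no difference between cultures and no error of scaling. They therefore give no rate of false calls for these libraries. No member shared 50% of its transcript at 97% identity with another gene (blastn 2.17.0, GENCODE release 29). Named were all 10 members, every called pathway gene (at most 4 per list and direction) and BRAF, MAPK3, CIC, ETV1, DUSP1, EGR1 and FOSL1; another gene of the rule is not reported here. GC content was matched for 89.9% of measured genes and for 10 of 10 members. Alternatives covered scaling, filters, prior count, GC content and length, exon sums and the call rule.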

Additional observations from a re-analysis of the deposited data

How the results depend on the processing

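The log2 folds of the 10 genes were recomputed under 10 alternatives and kept their sign wherever they were measured. The calls of SPRY1, SPRY2, SPRY4, DUSP5, DUSP6 and ETV4 held in all 10 alternatives. Leaving out the filter on low counts cannot change a gene's fold, and undivided counts alter only the weight of the prior in it, so these are no check of the sign. Plain totals, DESeq2 size factors, the deposited RPKM, the 20 most abundant genes left out and the 5 CPM filter each moved all folds by 1 shared amount. They vary the scaling only and are not separate checks of each gene. SPRED1 passed the rule with plain totals (1.13), the deposited RPKM (1.12), the 20 most abundant genes left out (1.12) and summed exon reads (1.20), and it fell out of the genes measured at 5 CPM. ETV5 lost its call after correction for GC content and gene length (0.89); the cause was not tested. The count of members called higher was 4 under a 3-fold rule with the interval beyond 2-fold. DUSP5 (2.85-fold), DUSP6 (2.65-fold) and ETV5 (2.08-fold) did not pass that rule. Related pathway genes called higher numbered 13 without the 20 most abundant genes and 5 after that correction, and those called lower numbered 1 with plain totals, the deposited RPKM, the 20 most abundant genes left out or that correction. Over all measured genes, calls numbered 652 higher and 283 lower after that correction, 2428 and 1371 at 1.5-fold with the interval beyond no difference, and 311 and 136 under the 3-fold rule, against 996 and 427. The added motif strings were chosen after the data were seen. Plain totals moved the median of all measured genes from 0.01 to 0.15 and the share of higher among the calls from 69.99% to 81.5%; the deposited RPKM gave 81.1% and the 20 most abundant genes left out 80.9%. No paired analysis was possible because each group has 1 library. One hairpin and 1 library per group limit all values: differences between cultures were not measured.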
